A study of Mus musculus with 4 samples.

Results

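The comparison set a library of mouse blastocysts grown with α-ketoglutarate (α-KG) against its own control library, 1 library each, 2 of the 4 libraries of the study. Of 53715 genes in the deposited table, the 9878 with at least 5 TPM in 1 or both of these libraries were taken, and 3257 of them reached 50 TPM. TPM is a transcript abundance scaled for gene length, so that all genes of a library share 1 common total. Embryos were of the strain C57BL/6. Zygotes came from the oviduct and grew in KSOM, a medium for preimplantation embryos, and at the stage with 2 pronuclei (2PN) they received α-KG at 0.15 mM. The other pair of libraries came from embryos given 2-hydroxyglutarate (2-HG) at 0.3 mM and from a negative control of their own. Embryos were treated with Triton X-100 at 0.2%, and libraries were built from pre-amplified cDNA, 1 ng each. The labels give neither the number of embryos per library nor whether strand was kept, and they do not say whether the controls received a vehicle. The control of the 2-HG pair served as a check, since it received no compound either. It belongs to the other pair, so a difference between the pairs can enter that check.

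α-KG is an intermediate of the tricarboxylic acid (TCA) cycle, made from isocitrate by isocitrate dehydrogenases and consumed by the α-KG dehydrogenase complex. It is also the co-substrate of a family of dioxygenases. These include the TET enzymes, which oxidise methylated cytosine in DNA, the JmjC enzymes, which demethylate histones, and the prolyl hydroxylases that control the hypoxia-inducible factors. The mouse blastocyst holds a trophectoderm, which forms the epithelial wall of the cavity, an epiblast and a primitive endoderm.

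Against its own control, the α-KG library held 416 of 9878 genes (4.21%) at a difference of 1 or more on the log2(TPM + 1) scale and 306 (3.10%) at -1 or less. This step of 2-fold is the size rule used throughout, and the added 1 shrinks the differences of low genes relative to their ratios. Against the 2-HG control, 344 of the same genes (3.48%) were higher and 357 (3.61%) lower with α-KG. The controls themselves differed at least as much, with 441 genes (4.46%) higher and 311 (3.15%) lower in the control of the 2-HG pair. Higher genes were 57.62% of those past the rule against the own control. With the 5 TPM minimum set on the α-KG library and the 2-HG control, they were 38.47%, at 327 higher genes and 523 lower ones. A total of 133 genes (1.35%) were higher than both controls and 130 (1.32%) lower than both. These are 31.97% of the genes higher than the own control and 42.48% of those lower than it. They are also 38.66% and 36.41% of the genes past the rule against the 2-HG control. No group holds more than 1 library, so no test could be run, and no difference here has a replicate check. The sequencing depth is unknown, since only TPM were used.

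The share of genes past the rule was lower among more abundant genes. It was 16.2% of genes whose higher value in the pair lay from 5 to 10 TPM, 9.74% from 10 to 20 TPM, 4.79% from 20 to 50 TPM, 2.40% from 50 to 100 TPM, 2.76% from 100 to 200 TPM and 1.39% at 200 TPM or more. Between the controls the same bands gave 14.9%, 9.08%, 6.16%, 4.28%, 2.76% and 2.38%. Among the 3257 genes at 50 TPM or more, 36 (1.11%) were higher and 35 (1.07%) lower than in the own control. Against the 2-HG control, 39 (1.20%) were higher and 47 (1.44%) lower. Between the controls, 60 of them (1.84%) were higher and 47 (1.44%) lower in the 2-HG control. Only 12 (0.368%) were higher with α-KG than in both controls and 16 (0.491%) lower than in both. At the 5 TPM limit, the α-KG library held Hs3st3b1 at 4.84 TPM and its control at 5.003 TPM, Qtrtd1 entered at 3.19 and 5.004 TPM in the same order, and Reg1 at 5.003 TPM with α-KG while listed at 0 in the control. Just outside it lay Runx1 at 2.66 and 4.99 TPM, Alg2 at 4.99 and 4.35 TPM, and Entpd5 at 4.99 and 3.47 TPM.

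**Figure D1:**
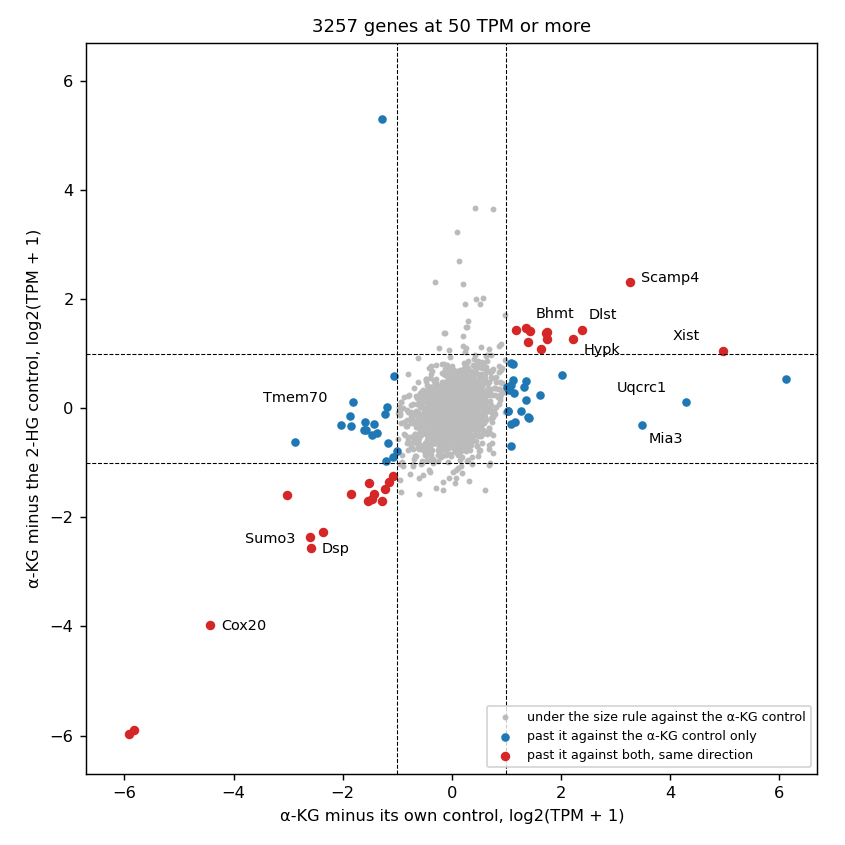
Each point is 1 of the 3257 genes at 50 TPM or more, with the difference of the α-KG library from its own control on the horizontal axis and from the 2-HG control on the vertical axis, both on the log2(TPM + 1) scale. Dashed lines mark the size rule. Both axes use the same α-KG library, so points along the diagonal are built into the plot, and points such as Uqcrc1 and Mia3 lie far to the right but near 0 vertically.

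Of the 12 genes at 50 TPM or more that stood above both controls, Dlst and Bhmt encode metabolic enzymes. Dlst encodes the succinyltransferase of the α-KG dehydrogenase complex (ENSMUSG00000004789.10, chromosome 12, 85110833 to 85134845 in GRCm38). It was at 60.7 TPM in the α-KG library, against 10.9 TPM in its control, 21.8 TPM in the 2-HG control and 26.4 TPM in the 2-HG library. Its differences were 2.38 and 1.44 from the own and the 2-HG control, and the other 3 libraries lay between 10.9 and 26.4 TPM. Bhmt encodes the enzyme that remethylates homocysteine to methionine with betaine (ENSMUSG00000074768.6, chromosome 13, 93616675 to 93637961). The α-KG library held it at 439 TPM, its control at 131 TPM, the 2-HG control at 167 TPM and the 2-HG library at 198 TPM. Differences of 1.74 and 1.39 followed, in a gene that was abundant in all 4 libraries.

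The promoters of Dlst and Bhmt, and those of Cox20 and Dsp, lower genes described next, are shown because CG dinucleotides, in capitals, are the sites on which TET enzymes act. DNA methylation was not analysed here. Each is 300 bases, from 250 before to 50 after the start used in the RefSeq promoter set for GRCm38.p6. That start is the outermost one of the RefSeq gene for Bhmt and Dsp, and lies 11 bases inside the gene for Dlst and 1058 bases inside it for Cox20.
Dlst, chr12:85110583-85110882, plus strand: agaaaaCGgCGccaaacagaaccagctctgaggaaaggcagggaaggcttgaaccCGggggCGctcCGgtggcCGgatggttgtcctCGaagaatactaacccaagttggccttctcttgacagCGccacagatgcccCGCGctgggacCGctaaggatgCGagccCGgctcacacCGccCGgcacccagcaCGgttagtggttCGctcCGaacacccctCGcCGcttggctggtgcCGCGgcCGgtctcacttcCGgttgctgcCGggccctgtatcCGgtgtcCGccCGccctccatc
Bhmt, chr13:93637709-93638008, minus strand: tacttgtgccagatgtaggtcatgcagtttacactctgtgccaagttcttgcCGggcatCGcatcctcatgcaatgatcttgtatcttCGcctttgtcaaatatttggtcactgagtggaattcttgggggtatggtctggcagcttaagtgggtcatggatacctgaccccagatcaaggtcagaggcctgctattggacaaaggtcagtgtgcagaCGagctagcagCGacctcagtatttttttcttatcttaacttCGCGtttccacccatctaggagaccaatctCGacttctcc
Cox20, chr1:178318903-178319202, plus strand: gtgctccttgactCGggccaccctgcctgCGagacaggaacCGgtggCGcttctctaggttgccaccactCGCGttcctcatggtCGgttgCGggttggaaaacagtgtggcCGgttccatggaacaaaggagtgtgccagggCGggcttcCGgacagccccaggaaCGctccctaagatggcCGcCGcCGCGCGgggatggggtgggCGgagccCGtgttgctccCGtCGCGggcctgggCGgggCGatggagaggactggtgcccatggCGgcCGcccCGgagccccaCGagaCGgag
Dsp, chr13:38151044-38151343, plus strand: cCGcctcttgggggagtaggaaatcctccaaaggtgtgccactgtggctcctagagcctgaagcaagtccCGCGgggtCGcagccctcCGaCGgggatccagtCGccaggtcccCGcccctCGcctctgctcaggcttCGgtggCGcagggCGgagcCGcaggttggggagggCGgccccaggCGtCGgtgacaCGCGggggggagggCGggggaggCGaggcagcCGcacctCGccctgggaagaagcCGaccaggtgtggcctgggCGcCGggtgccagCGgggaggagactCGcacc
The search counted CG, which reads the same on both strands. Dlst holds 28 of them, Bhmt 8, Cox20 29 and Dsp 27. Of the tested genes, 6614 matched a promoter of this length by symbol, with a median of 22, and 99.55% hold at least 1. The median was 19 for 54 genes higher than both controls and 22 for 70 genes lower than both. CG content at the start is a description of the sequence and was not set against the RNA differences by any test.

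Usp9x, an X-linked deubiquitinase gene, was at 63.7 TPM with α-KG, 24.1 TPM in its control, 22.3 TPM in the 2-HG control and 36.6 TPM with 2-HG. Cdc34, which encodes a ubiquitin-conjugating enzyme, was at 120, 52.9, 44.0 and 64.7 TPM in the same order. Larp4b, an RNA-binding protein gene, was at 114, 33.6, 43.1 and 90.6 TPM. In Usp9x and Cdc34 the 2-HG library lay nearer the controls than the α-KG library did, whereas for Larp4b it lay nearer the α-KG library. Ivns1abp, a Kelch protein gene, was at 139 TPM with α-KG and between 39.2 and 59.4 TPM in the other 3 libraries. Krcc1 was at 131 TPM with α-KG, 48.2 and 48.7 TPM in the controls and at 88.3 TPM with 2-HG. In these 5 genes the difference from each control lay between 1.17 and 1.73.

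Scamp4, Hypk and Xist met the rule as single genes but share exons with other genes, and summing over those genes took them out of it. Scamp4, a secretory carrier membrane protein gene, was at 97.7 TPM with α-KG, 9.27 TPM in its control, and 18.9 TPM in both libraries of the 2-HG pair. RP24-327D15.11, a gene on the same strand that shares its exons, was at 2.03 TPM with α-KG, 31.2 TPM in its control, 72.7 TPM in the 2-HG control and 46.6 TPM with 2-HG, and Adat3 shares exons as well. Summed over these 3 genes the differences were 1.44 and 0.26. Hypk, whose protein binds the N-terminal acetyltransferase NatA, was at 212 TPM with α-KG, 44.6 TPM in its control, 88.0 TPM in the 2-HG control and 143 TPM with 2-HG. Its neighbour Serf2, on the same strand with shared exons, ran the other way, at 191, 341, 197 and 295 TPM. The sum of Hypk and Serf2 differed by 0.07 from the own control and 0.50 from the 2-HG control.

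Of the 16 genes at 50 TPM or more that stood below both controls, Dsp, Sumo3 and Cox20 had the lowest levels relative to them among the named genes. Dsp encodes desmoplakin, which ties keratin filaments to desmosomes (ENSMUSG00000054889.10, chromosome 13, 38151294 to 38198577). The α-KG library held it at 12.5 TPM, while its control was at 80.3 TPM, the 2-HG control at 78.6 TPM and the 2-HG library at 80.5 TPM. The other 3 libraries were nearly level, and the differences of Dsp were -2.59 and -2.56. Sumo3, a SUMO modifier gene, was at 13.0 TPM with α-KG, 83.3 TPM in its control, 70.9 TPM in the 2-HG control and 127 TPM with 2-HG. Its differences from the controls were -2.59 and -2.36. Gemin7, a member of the SMN complex that assembles spliceosomal particles, was at 36.8, 135, 111 and 82.1 TPM in the same order.

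Cox20, an assembly factor of respiratory complex IV (ENSMUSG00000026500.6, chromosome 1, 178319130 to 178322693), was listed at 2.58 TPM with α-KG, 76.0 TPM in its control, 54.9 TPM in the 2-HG control and 61.4 TPM with 2-HG. As a single gene it differed by -4.43 and -3.96. It shares exons with Hnrnpu on the opposite strand, which was at 44.4 TPM with α-KG, 55.5 TPM in its control, 8.19 TPM in the 2-HG control and 34.4 TPM with 2-HG. Summed, the pair differed by -1.46 from the own control and by -0.42 from the 2-HG control, under the rule.

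Tpd52 and Nras were low in both treated libraries. Tpd52, a gene of vesicle traffic, was at 151 TPM with α-KG and 80.5 TPM with 2-HG, against 441 and 494 TPM in the α-KG and 2-HG controls. Nras, a RAS GTPase gene, was at 18.9 and 25.8 TPM against 53.9 and 62.3 TPM. Hras, another RAS GTPase gene, was at 47.1 TPM with α-KG against 38.5 TPM in its control. Mbnl3, an X-linked splicing regulator gene, was at 49.3 and 53.8 TPM against 121 and 162 TPM, and Qdpr, which encodes the dihydropteridine reductase that regenerates tetrahydrobiopterin, at 29.1 and 35.3 TPM against 62.5 and 70.1 TPM.

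In Cdipt, Dctn5, Zfand3 and Lhpp the low value stood in the α-KG library alone. Cdipt, which encodes phosphatidylinositol synthase, was at 46.5 TPM with α-KG and between 126 and 167 TPM in the other 3 libraries. Dctn5, a dynactin subunit gene, was at 47.6 TPM against a range of 112 to 135 TPM. Zfand3, a zinc finger gene, was at 18.2 TPM against 48.6 to 54.4 TPM, and Lhpp, a histidine phosphatase gene, at 23.5 TPM against 49.8 to 61.3 TPM. Tmem254c was at 9.27 TPM against 43.9 to 51.7 TPM, but it has near-identical copies, Tmem254a and Tmem254b, both at 1.05 TPM or less in all 4 libraries, so its value is uncertain.

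**Figure D2:**
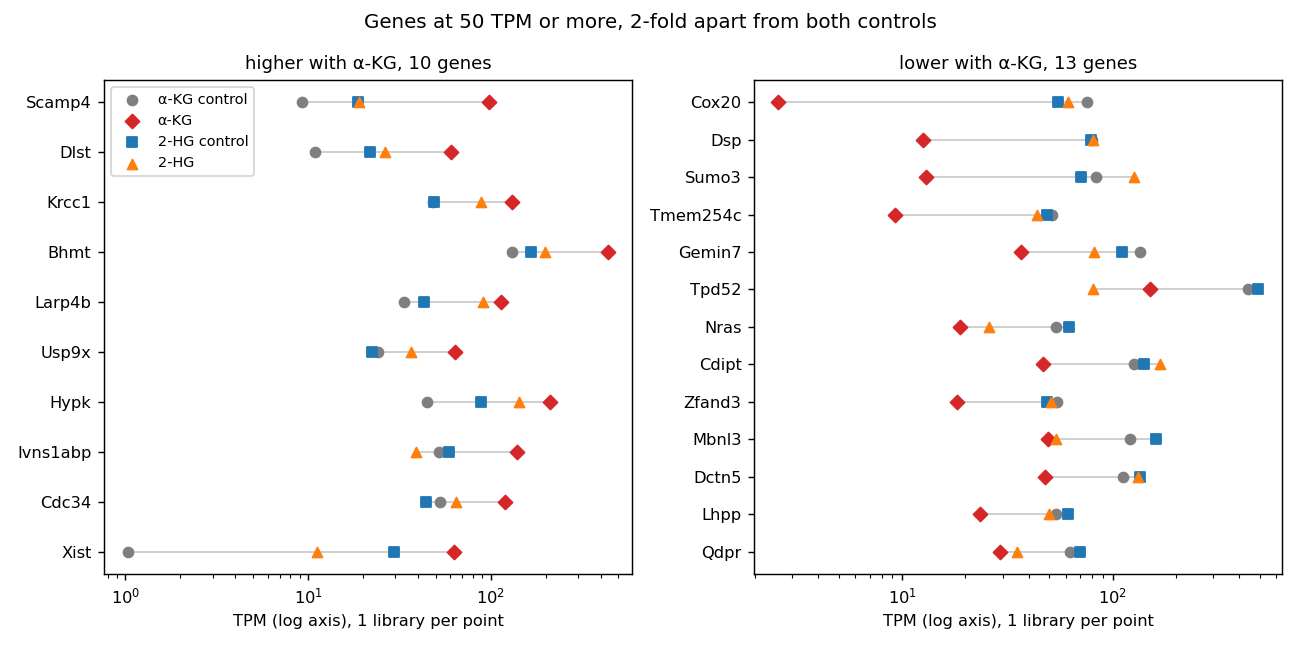
TPM on a log axis in each of the 4 libraries for the 10 named genes at 50 TPM or more that were 2-fold above both controls (left) and the 13 that were 2-fold below both (right), 1 point per library. The α-KG library is the highest of the 4 in each gene on the left and the lowest in each on the right except Tpd52, where the 2-HG library is lower still.

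Of the 28 abundant genes past the rule against both controls, 5 were predicted, clone or pseudogenes. RP23-391M18.7 was listed at 0 with either compound, while its level was 59.5 TPM in the control of the α-KG pair and 61.9 TPM in that of the 2-HG pair. It shares exons on the same strand with Dpm1, a subunit gene of dolichol-phosphate mannose synthase, and with Adnp, a chromatin protein gene. Dpm1 was at 140 TPM with α-KG against 74.3 and 85.7 TPM in the controls, and Adnp at 3.34 TPM, against 0.193 TPM in the 2-HG control and a listed 0 in its own. The 3 genes together held 144 TPM with α-KG, 134 TPM in its control and 148 TPM in the 2-HG control. The clone gene RP23-67E6.3 was at 82.3 TPM with α-KG against 25.8 and 38.4 TPM, and Gm5096 at 67.3 TPM against 19.5 and 27.3 TPM. Of all 28 genes, 14 share exons with another gene, and 9 of these 14 stayed past the rule against both controls after summing.

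A different set of abundant genes passed the rule against the own control only, 24 of them higher and 19 lower. This choice by itself favours genes in which the α-KG control is extreme, so nothing is read from its place among the libraries. Uqcrc1, a core subunit gene of respiratory complex III, was at 258 TPM with α-KG and 240 TPM in the 2-HG control, but only at 12.3 TPM in its own control and 22.2 TPM with 2-HG. Mia3, a gene of collagen export from the endoplasmic reticulum, had the same pattern, with 60.0 and 74.1 TPM against 4.46 and 4.26 TPM. Sec31a, which encodes a coat protein of COPII vesicles, did too, at 130 and 146 TPM against 48.9 and 50.3 TPM. In these 3 genes the α-KG library and the 2-HG control lay together, apart from the other 2 libraries. C1d, a cofactor gene of the nuclear exosome, was at 96.6 TPM with α-KG and 35.8 TPM in its control, and Cfl2, a cofilin gene, at 77.7 and 29.5 TPM. Ak4, a mitochondrial adenylate kinase gene, was at 277 TPM with α-KG and 89.7 TPM in its control, against 232 and 214 TPM in the 2-HG control and the 2-HG library. Adh1, an alcohol dehydrogenase gene, was at 901 TPM with α-KG, 374 TPM in its control and 932 TPM in the 2-HG control.

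On the lower side, Hmgb1, a chromatin protein gene, was at 139 TPM with α-KG and 423 TPM in its control, but at 166 TPM in the 2-HG control and 170 TPM with 2-HG. Tmem70, an assembly factor gene of ATP synthase, was at 40.6 and 151 TPM, and at 44.9 TPM in the 2-HG control. Cdt1, a replication licensing gene, was at 23.98 and 72.9 TPM, and at 32.0 TPM in the 2-HG control. Their differences from the 2-HG control on the log2(TPM + 1) scale were -0.252 for Hmgb1, -0.142 for Tmem70 and -0.401 for Cdt1. Atp5a1, which encodes the alpha subunit of ATP synthase, was at 34.8 and 128 TPM in the pair and 44.1 TPM in the 2-HG control. Its exon-sharing neighbour Haus1 was at 15.6 and 7.07 TPM in the pair and at 142 TPM in the 2-HG control, so the sum of both differed by -1.40 from the own and -1.86 from the 2-HG control. Med7, a Mediator subunit gene, was at 77.2 and 203 TPM in the pair and 106 TPM in the 2-HG control.

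**Figure D3:**
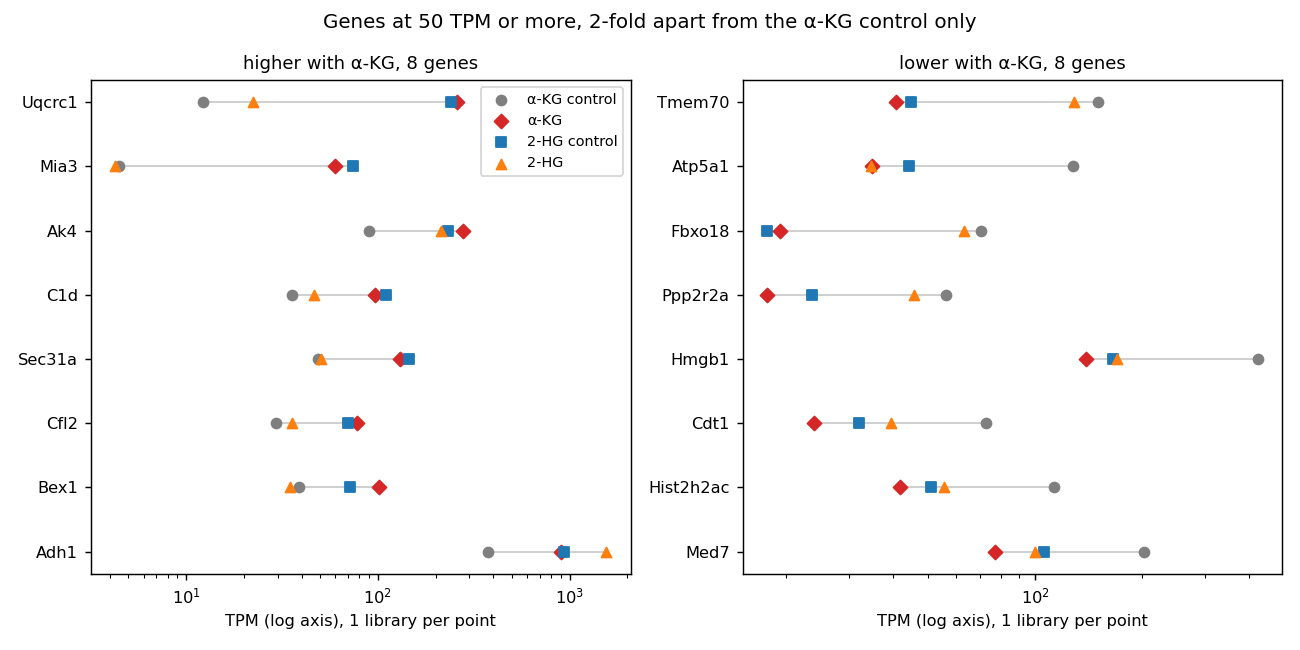
TPM on a log axis in each of the 4 libraries for the 8 genes at 50 TPM or more with the largest higher difference (left) and the 8 with the largest lower difference (right) from the own control among those not past the rule against the 2-HG control, 1 point per library. On both sides the 2-HG control lies near the α-KG library, and the α-KG control lies at or near the far end, which the choice of these genes favours.

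Enzymes that make or use α-KG, and the dioxygenases that depend on it, were mostly under the size rule, as were most of all genes tested. Of all genes, 4.21% were higher and 3.10% lower than in the own control, and 1.11% and 1.07% at 50 TPM or more. Low counts in lists of this size cannot be set apart from these shares. In the list of α-KG and 2-HG enzymes, 1 of 27 measured members, Dlst, passed the rule, and the median difference was 0.05 from the own and -0.22 from the 2-HG control, where all 9878 genes had medians of 0.05 and -0.01. The partners of Dlst in its complex were closer to their controls. Ogdh, which encodes the subunit that decarboxylates α-KG, was at 120 TPM with α-KG, 90.4 TPM in its control and 109 TPM in the 2-HG control, and Dld, the shared dehydrogenase subunit, at 51.8, 63.0 and 52.3 TPM. Of the isocitrate dehydrogenase genes, Idh1 was at 212 TPM with α-KG, 154 TPM in its control and 201 TPM in the 2-HG control, Idh2 at 140, 126 and 212 TPM, and Idh3g at 411, 276 and 478 TPM. Glud1, which makes α-KG from glutamate, was at 162, 152 and 158 TPM, and Phgdh, the first enzyme gene of serine synthesis, at 126, 130 and 224 TPM. None of the 22 measured members of the TCA list passed the rule against the own control, and their median difference was -0.01. Against the 2-HG control it was -0.25, and 13 of the 22 lay below both controls by any amount.

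Of 18 measured TET, DNA methyltransferase and related genes, none passed the rule against the own control. With 4.21% of all genes higher and 3.10% lower, this list and the next ones are too small to be set apart from all genes. Tet2 was at 114 TPM with α-KG, 98.9 TPM in its control and 78.2 TPM in the 2-HG control. Tet1 was at 41.1 and 40.7 TPM in the pair and 19.8 TPM in the 2-HG control, and Tet3 was below 2 TPM in all 4 libraries. The de novo methyltransferase gene Dnmt3b was at 113, 103 and 103 TPM in the same order, and its cofactor gene Dnmt3l at 144, 125 and 115 TPM. Among 20 measured JmjC and LSD demethylase genes, Kdm5c was higher than both controls, at 13.2 TPM against 2.97 and 3.38 TPM, and its Y-linked relative Kdm5d was at 0.995 TPM with α-KG against 5.49 and 2.69 TPM. Kdm3b, at 59.3, 60.7 and 57.3 TPM, and Kdm5b, at 32.0, 34.1 and 23.0 TPM, were more abundant and nearer their own control. Among 20 measured other dioxygenase genes, Alkbh8, a tRNA methyltransferase gene with a dioxygenase domain, was lower than both, at 7.41 TPM against 20.8 and 24.3 TPM. Alkbh4 was at 8.35 TPM with α-KG and 1.02 TPM in its control, and at 4.02 TPM in the 2-HG control. The hypoxia list, whose factors prolyl hydroxylases control, had 1 of 16 measured members past the rule. This was Ldha, lactate dehydrogenase, at 46.8 TPM with α-KG, 20.5 TPM in its control and 63.0 TPM in the 2-HG control.

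Around Bhmt, the methionine and folate genes did not share its difference. Ahcy, which hydrolyses S-adenosylhomocysteine, was at 83.0 TPM with α-KG, 68.3 TPM in its control and 63.0 TPM in the 2-HG control, and Mat2b, a subunit gene of methionine adenosyltransferase, at 60.6, 58.4 and 76.9 TPM. Mthfd1, a folate enzyme gene, was at 151, 134 and 142 TPM. Of 32 measured members of the folate, methionine and nucleotide list, 3 were higher than the own control and none lower, and none passed against both. Over all genes tested, 4.21% were higher and 3.10% lower than in the own control, and 1.35% and 1.32% against both. A list of this size cannot be set apart from these shares. The 3 higher members were Dhodh of pyrimidine synthesis, at 24.3 and 11.3 TPM, Pfas of purine synthesis, at 6.36 and 1.89 TPM, and Tdh, threonine dehydrogenase, at 14.7 and 4.66 TPM. Pfas and Tdh reached 5 TPM only through the α-KG library.

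The large housekeeping machines held few genes past the rule. None passed against the own control among 35 measured complex I subunits, 75 mitochondrial ribosomal proteins, 85 cytosolic ribosomal proteins, 57 translation factors, 39 mitochondrial import genes, 44 chaperones, 48 nuclear pore and transport genes and 13 mitochondrial mRNAs. Over all genes tested, 4.21% were higher and 3.10% lower, but most of these machines are abundant, and at 50 TPM or more the shares were 1.11% and 1.07%. Cytosolic ribosomal proteins had a median difference of -0.09 from the own and 0.22 from the 2-HG control. Their summed TPM was 94176 with α-KG, 97853 in its control, 81587 in the 2-HG control and 80912 with 2-HG, so the libraries of each pair lay together. Of 27 subunits of complexes II to IV and cytochrome c, 1 passed, Uqcrc1. Of 45 respiratory chain assembly factors, 3 were lower and none higher: Cox20, Tmem70 and Pet117, a complex IV factor gene at 0.392 TPM with α-KG against 8.86 and 5.05 TPM in the controls. Pet117 shares exons with Csrp2bp, and their sum differed by -1.20 from the own and -0.72 from the 2-HG control.

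Of the trophectoderm list, Dsp passed the rule against both controls and Elf5 against the own control only. Among all genes tested, 4.21% were higher and 3.10% lower than in the own control, and 1.11% and 1.07% at 50 TPM or more. Lists as small as those of the blastocyst lineages cannot be set apart from these shares. Their counts are not read as a result about lineage genes. The trophectoderm list had a median of 0.16 against the own and 0.06 against the 2-HG control over 29 measured members, and 16 of them lay above both controls by any amount. Krt8 and Krt18, the keratins of this epithelium, were at 2219 and 4233 TPM with α-KG, 1985 and 3607 TPM in its control and 2165 and 3879 TPM in the 2-HG control. Other desmosome genes did not follow Dsp. Dsg2, a desmosomal cadherin gene, was at 94.5 TPM with α-KG, 91.1 TPM in its control and 88.3 TPM in the 2-HG control, Pkp2, a plakophilin gene, at 77.6, 70.4 and 91.7 TPM, and Jup, plakoglobin, at 76.0, 63.2 and 117 TPM. Of 48 measured junction, keratin and polarity genes, Dsp was the only one past the rule. Plac1, a placental gene, was at 546 TPM with α-KG, 320 TPM in its control and 422 TPM in the 2-HG control. Elf5, a trophoblast factor gene, was at 1.20 TPM with α-KG and 6.90 TPM in its control, but at 0.757 TPM in the 2-HG control.

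Of 23 measured epiblast genes, 1 (Tdh) passed the rule against the own control and none against both, with medians of -0.03 and 0.25. By any amount, 10 of the 23 lay above the own control and 13 below it. Spic, an ETS factor gene, was at 136 TPM with α-KG, 118 TPM in its control and 54.2 TPM in the 2-HG control. Pou5f1 was at 28.1 TPM with α-KG, 47.3 TPM in its control, 43.3 TPM in the 2-HG control and 40.6 TPM with 2-HG. Nanog was at 75.2, 66.3, 62.8 and 44.2 TPM in the same order, and Sox2 at 9.18, 8.91, 2.38 and 1.92 TPM. The primitive endoderm list, with 14 measured members, had medians of 0.19 and -0.02 and none past the rule. Sparc and Apoe, which this tissue secretes, were at 122 and 144 TPM with α-KG, 79.3 and 77.6 TPM in its control, and 137 and 121 TPM in the 2-HG control. Gata6, a factor gene of the list, was at 208 TPM with α-KG, 212 TPM in its control and 190 TPM in the 2-HG control. By any amount, 10 members of this list lay above the own control and 4 below it. The later endoderm factors Gata4 and Sox17 were below 1 TPM in both libraries of the pair. In bulk libraries such as these, fewer cells of a type and less RNA per cell cannot be told apart. Most markers of cells that could be carried over from the oviduct were low. Of 18 cumulus and granulosa genes 2 reached 5 TPM in the pair, of 12 oviduct genes 1 and of 12 blood cell genes 1. Amh, Fshr and Has2 of cumulus and granulosa cells, Foxj1 of ciliated oviduct cells and Hbb-bs of blood were listed at 0 in all 4 libraries, and Ovgp1 of oviduct secretory cells at 0.628 to 1.70 TPM. The abundant exceptions were Nr5a2, also an epiblast gene, at 48.0 TPM with α-KG and 49.6 TPM in its control, and Epcam, an epithelial adhesion gene, at 1019 and 973 TPM. Cd68, a macrophage and lysosomal gene of the blood list, was at 29.98 TPM with α-KG, 10.3 TPM in its control, 19.3 TPM in the 2-HG control and 18.5 TPM with 2-HG, past the rule against its own control. The part of such cells in the results was not tested.

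X-linked genes leaned higher with α-KG, and the summed Y-linked genes were lower. Of 355 measured X-linked genes, 230 lay above 0 against the own control, 33 (9.30%) were higher and 5 lower than in the own control, and 13 (3.66%) were higher and 2 lower than both controls. Over all genes tested, 55.76% lay above 0, 4.21% were higher and 3.10% lower than in the own control, and 1.35% were higher and 1.32% lower than both. The median difference of the X-linked genes was 0.16 from the own and 0.10 from the 2-HG control. Xist, the RNA that coats and silences 1 X chromosome in female cells, was at 62.6 TPM with α-KG and 1.04 TPM in its control, at 29.7 TPM in the 2-HG control and 11.2 TPM with 2-HG. It overlaps Tsix on the opposite strand and 2 further genes, and their sum differed by 5.64 and 0.70 from the 2 controls. Ftx, a noncoding gene of the X-inactivation centre, was at 5.25 TPM against 0.414 and 1.90 TPM in the controls. Psmd10, which encodes the proteasome chaperone gankyrin, was at 14.8 TPM against 3.11 and 3.66 TPM, and Irak1, a kinase gene of Toll-like receptor signalling, at 14.2 TPM against 3.41 and 5.97 TPM. Xist, Ftx, Psmd10, Irak1 and several other X-linked genes higher than both controls reached 5 TPM only through the α-KG library. The minimum itself therefore favours higher members in these X-linked counts.

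Y-linked protein-coding genes summed to 145 TPM with α-KG, 254 TPM in its control, 211 TPM in the 2-HG control and 230 TPM with 2-HG. Eif2s3y, a translation initiation factor gene, was at 100 TPM with α-KG, 179 TPM in its control, 157 TPM in the 2-HG control and 174 TPM with 2-HG. Ddx3y, an RNA helicase gene, was at 28.6 TPM with α-KG and between 32.5 and 53.1 TPM in the other 3 libraries. Eif2s3y and Ddx3y make up most of each sum. Among the less abundant genes, Kdm5d and Usp9y were also lowest with α-KG, whereas Uty and Gm47283 were not. Uty was at 7.16 TPM with α-KG, 10.6 TPM in its control and 6.73 TPM in the 2-HG control, and Gm47283 at 4.69, 2.19 and 5.35 TPM. The labels do not give the sex of the embryos. The share of male and female embryos in each library, and what it adds to Usp9x, Kdm5c, Xist and the other X-linked differences, cannot be told apart from the treatment.

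A run of predicted genes on chromosome 12 stood out in the α-KG library. It was noticed after the values were seen, so its counts are a description of these genes. Between Gm5788 and Gm5039 (87494721 to 88324026 in GRCm38), 18 protein-coding genes were listed above 0 in 1 or more libraries, and the α-KG library was the highest in 13 of them. Their summed TPM was 173 with α-KG, 37.1 in its control, 19.13 in the 2-HG control and 13.99 with 2-HG. Of 9 that reached 5 TPM in the pair, 9 were higher than the own control and 8 higher than both. All of these but Gm5662 reached 5 TPM only through the α-KG library, so the minimum itself favours higher members in this count. Gm5662 was at 37.7 TPM with α-KG, 12.8 TPM in its control, 5.28 TPM in the 2-HG control and 9.36 TPM with 2-HG. Gm2016 was at 19.9, 3.70, 0.359 and 0.341 TPM, and Gm8332 at 19.03, 4.56, 0.389 and 0.704 TPM. In the α-KG library and its control Gm5039 was at 19.6 and 1.10 TPM and Gm8300 at 16.6 and 1.42 TPM, and both were listed at 0 in the 2-HG pair. These 8 genes are part of 18 genes of chromosome 12 that were higher than both controls, and outside the run the share was 10 of 375 (2.67%). Genes in such runs can be near-identical copies, so the split of reads among them is uncertain.

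Genes known from the mouse 2-cell embryo were also listed in the α-KG library more than in the others, at low levels. Of 11 genes of this kind in the oocyte and 2-cell list, 9 were above 0 with α-KG, 4 in its control, 2 in the 2-HG control and 4 with 2-HG. The share of all genes above 0 in each library was not set beside these counts, and the sequencing depth is unknown. The counts are therefore only a description of these genes. Zfp352, a zinc finger gene of the 2-cell stage, was at 7.28 TPM with α-KG, listed at 0 in both controls and at 0.268 TPM with 2-HG. Zscan4d and Gm4340 were at 2.37 and 2.60 TPM with α-KG and listed at 0 in the other 3 libraries, and Zscan4f was at 1.31 TPM with α-KG and 0.273 TPM in its control. Usp17lc, Zscan4c and Obox3 were also above 0 in the α-KG library alone, at 0.212 TPM or less. Tcstv1 was near 4 TPM in both libraries of the pair (4.05 and 4.24 TPM) and in the 2-HG control (4.27 TPM). Tcstv3 and Tdpoz4 were listed at 0 with α-KG and were highest with 2-HG. Obox6 was highest with α-KG by a small margin, at 20.3 TPM with α-KG, 13.7 TPM in its control, 8.49 TPM in the 2-HG control and 18.05 TPM with 2-HG. The oocyte genes Zp3, Bmp15 and Oosp1 were at 0.0460 TPM or less with α-KG. Gdf9 was at 1.34 TPM with α-KG and 1.29 TPM in the 2-HG control. Only Zfp352 and Obox6, 2 of the 11 genes, reached 5 TPM in the pair, and Zfp352 lies in the band where 16.2% of genes passed the rule against the own control.

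**Figure D4:**
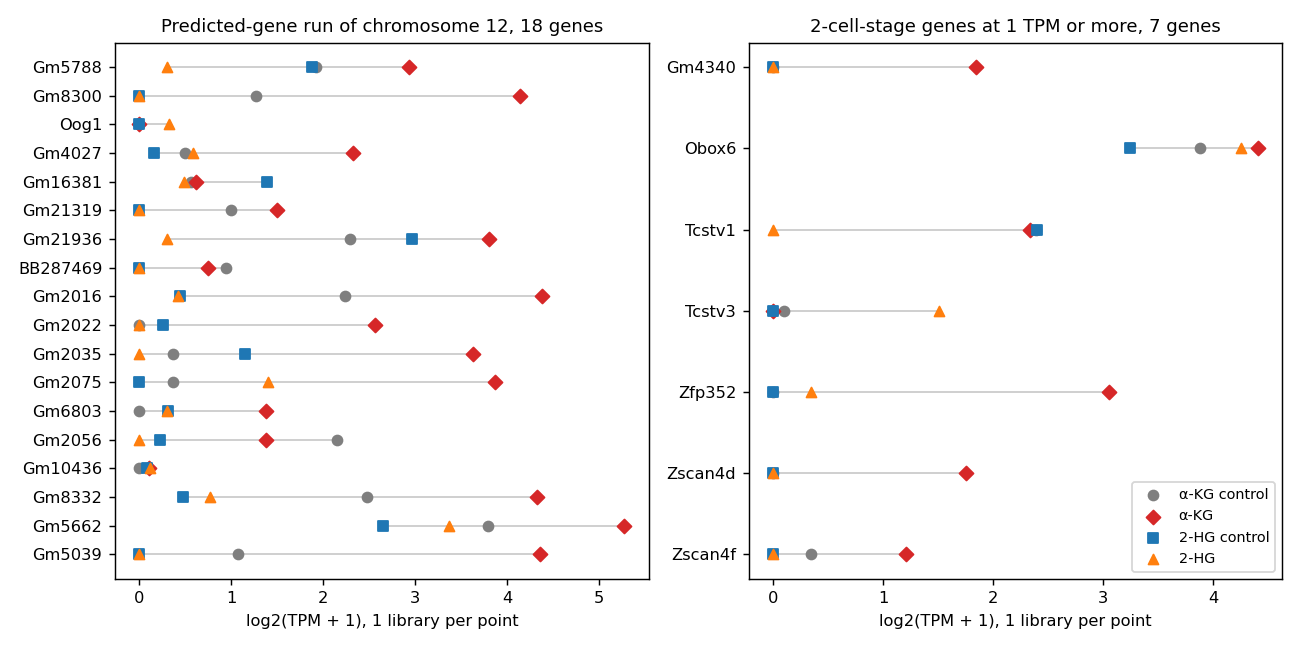
log2(TPM + 1) in each of the 4 libraries for the 18 protein-coding genes listed above 0 in the chromosome 12 run (left, in order along the chromosome) and for the 7 genes of the 2-cell stage that reached 1 TPM (right), 1 point per library. The α-KG library is the highest in 13 of the 18 genes on the left, and on the right Zfp352, Zscan4d and Gm4340 are near or at 0 in the other 3 libraries.

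Genes of small RNAs passed the rule more often than protein-coding genes. Of 67 measured snoRNA genes, 46.27% passed the rule against the own control in either direction, of 52 miRNA genes 40.38%, of 157 lincRNA genes 21.66% and of 8614 protein-coding genes 5.85%. Among 31 named snoRNA genes, 8 were higher and 4 lower than the own control, with 4 and 3 against both. Snord16a was at 0.0160 TPM with α-KG against 22.3 and 19.6 TPM in the controls. It shares exons with Rpl4, a ribosomal protein gene, and summed with it the differences were 0.11 and 0.05, under the rule. Snora19 was at 5.92 TPM against 0.917 and 0.985 TPM, and summed with Mir3084-2, which shares its exons, it differed by 1.89 from the own and 0.68 from the 2-HG control. These genes are short, and TPM divides by gene length. None of the 31 named snoRNA genes reached 50 TPM. Over all genes tested, the share past the rule fell from 16.2% at 5 to 10 TPM to 1.39% at 200 TPM or more. Named genes passed in 5.87% of 8286 cases, and predicted, clone or pseudogenes in 14.82% of 1592. None of these comparisons between kinds of genes was matched for level, so abundance and kind of gene cannot be told apart in them.

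Of 64 measured vesicle transport genes, 3 were higher and 3 lower than the own control, a share near that of all genes (4.21% and 3.10%). Against both controls 1 was higher and 3 lower, where 1.35% and 1.32% of all genes were. The 3 lower ones were Trappc8 and Trappc12, TRAPP complex genes, at 6.20 TPM against 37.4 and 37.3 TPM and at 10.2 TPM against 26.4 and 29.3 TPM, and Golph3l, a Golgi protein gene, at 1.92 TPM against 19.4 and 19.6 TPM. Trappc8 was equally low with 2-HG, at 6.71 TPM, and Golph3l was at 19.12 TPM there. In the ubiquitin and proteasome list of 76 measured genes, Sumo3 and Senp8, a NEDD8 protease gene at 2.70 TPM against 10.7 and 13.3 TPM, were lower than both, and Psmd10 was higher. Sumo2 was at 121 TPM with α-KG against 135 and 344 TPM.

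In the FGF, RAS and MAPK list, Grb2, an adaptor gene, was higher than both controls, at 38.1 TPM against 14.8 and 10.4 TPM, and Nras lower. Mapk14, which encodes p38α, was at 20.04 TPM with α-KG, 4.39 TPM in its control and 45.1 TPM in the 2-HG control, so it lay past the rule above the one and below the other. Among replication genes Rpa1, of the single-strand binding complex, was at 34.1 TPM against 7.71 and 9.16 TPM. Casp2, the only one of 35 measured p53 and apoptosis genes past the rule, was at 1.15 TPM against 21.6 and 23.7 TPM, and it was at 2.75 TPM with 2-HG. Over all genes tested, 4.21% were higher and 3.10% lower than in the own control. The count for these 35 genes cannot be set apart from those shares. Srebf2, which encodes a master factor of cholesterol synthesis, was at 4.64 TPM against 12.2 and 15.4 TPM, while its list had a median of 0.11 from the own and -0.45 from the 2-HG control. Gnl3l, a GTPase gene of ribosome biogenesis, was at 1.18 TPM against 19.9 and 11.7 TPM. Arl8a, a GTPase gene of lysosome transport, was at 10.1 TPM against 1.21 and 1.10 TPM and at 8.15 TPM with 2-HG.

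Histone genes were the group with the lowest median against the own control, at -0.18 over 40 measured members, and 7 were lower and none higher, where all genes had a median of 0.05 with 3.10% lower and 4.21% higher. Hist1h2ae was at 92.6 TPM with α-KG and 218 TPM in its control, and Hist2h2ac at 41.8 and 113 TPM. Their values in the 2-HG control were 99.8 and 50.9 TPM, and the list's median there was -0.03, with 1 member, Hist1h2bn, lower than both. Imprinted genes had the highest median, 0.34 over 22 members, with 5 higher and none lower, and it was -0.01 against the 2-HG control. Besides Xist, the 5 were Slc22a18, Phlda2, Plagl1 and Airn, at 6.27 to 10.8 TPM with α-KG. All 5 reached the minimum of 5 TPM only through the α-KG library, so the minimum itself favours higher members in this count.

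The largest shift with the control was that of the ATF4 and integrated stress response genes. Their median over 18 measured members was 0.18 from the own and -0.64 from the 2-HG control. Ddit3, which encodes the stress factor CHOP, was at 82.8 TPM with α-KG, 51.0 TPM in its control, 172 TPM in the 2-HG control and 228 TPM with 2-HG. Asns, asparagine synthetase, was at 51.8, 54.0, 128 and 61.1 TPM, and Nupr1, a stress-induced chromatin protein gene, at 7.09, 1.58, 36.9 and 51.6 TPM. Both libraries of the α-KG pair lay below the 2-HG control in these 3 genes, and within the pair Nupr1 was past the rule, the 1 member of the list that was. Nupr1 reached 5 TPM only through the α-KG library. Over all genes tested, 4.21% were higher and 3.10% lower than in the own control, and a list of this size cannot be set apart from these shares. Of 48 lists with at least 5 measured members, 12 had medians above 0 and 6 below 0 against both controls, and 30 changed sign with the control.

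**Figure D5:**
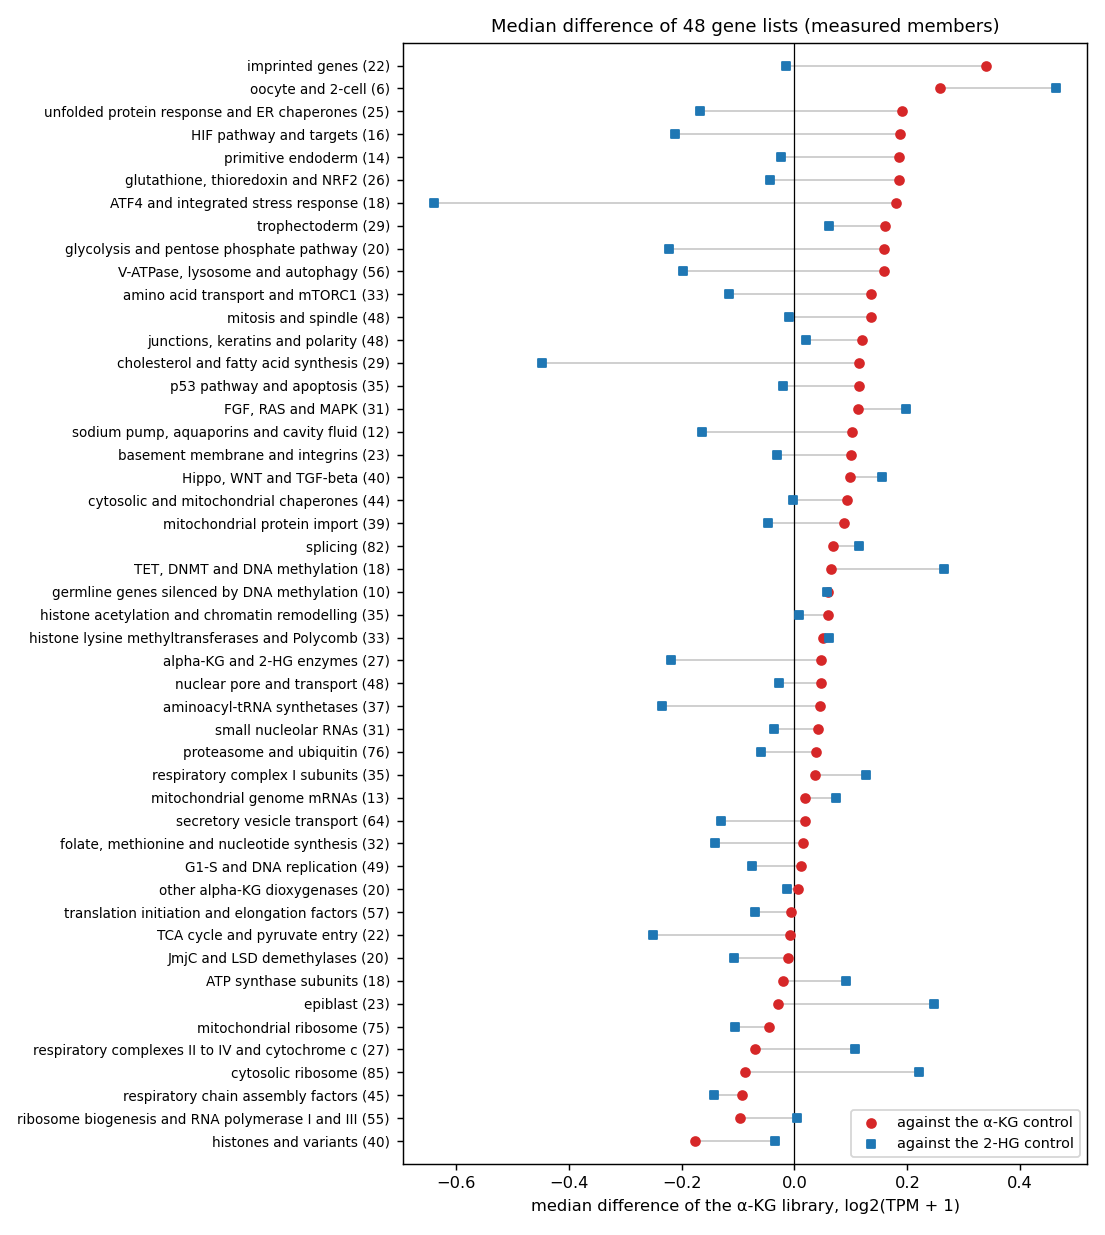
Median difference of the α-KG library from its own control (circles) and from the 2-HG control (squares) on the log2(TPM + 1) scale for 48 gene lists, with the number of measured members in brackets. Against the own control the medians run from -0.18 for histones to 0.34 for imprinted genes, and against the 2-HG control from -0.64 for ATF4 genes to 0.46 for oocyte and 2-cell genes.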

How the data were processed

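The 4 libraries, 1 for each group, came from C57BL/6 mouse embryos. The values are TPM per gene, computed and deposited by the authors. The submitters' processing notes name the tools DESeq2, StringTie, Picard, HISAT2 and Trimmomatic, and the builds GRCm38.p6 and mm10, without version or role. Counts were not used, so the depth is unknown and no intervals or detection limits are given. A second deposited worksheet holds 10 columns of per-sample values, which were not used here.

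Of 53715 gene identifiers, 53620 matched GENCODE M21 by ID, which gave coordinates (1-based, GRCm38), biotypes and exon overlaps. The names of 27 genes, stored as dates, were recovered by ID. Differences are of log2(TPM + 1) between 2 libraries for genes at 5 TPM or more in 1 or both libraries of the α-KG pair, and a difference of 1 in either direction met the size rule. The columns sum to between 999891 and 999935 TPM, and they were not rescaled. The calculation was tested on simulated data. Python 3.11.15, numpy 2.4.6, pandas 2.3.3 and matplotlib 3.10.9 were used.

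The comparison, the 51 gene lists and the rules were chosen with earlier results of these data known. Genes were named by rule: at 50 TPM or more, the first 15 per direction past the size rule against both controls, ranked by the smaller difference, and the first 8 per direction past it against the own control only, with predicted, clone and pseudogenes left out. In each list up to 4 members at 20 TPM or more, and a fixed set of lineage and α-KG genes, could be named too. Other list members, the clone genes, the chromosome 12 run and genes set beside a leading gene were chosen after their values were seen. The pattern that marks clone names was widened after the values were seen. Promoter sequences are from RefSeq, GRCm38.p6.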

Additional observations from a re-analysis of the deposited data

How the results depend on the processing

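No paired analysis was possible because each group holds 1 library and the labels give no replicate numbers. The counts against the own control moved most with the treatment of low genes. With a pseudocount of 5, 163 genes were higher and 126 lower, and 55 and 58 passed against both controls. With no minimum the 4 counts were 1265, 960, 524 and 288, and with a minimum of 10 TPM they were 225, 172, 65 and 77. Without genes that share exons, 203 genes were lower than the own control, 81 lower than both, and 22 abundant genes were higher and 19 lower. With protein-coding genes only, 79 were higher than both. At 100 TPM in place of 50, 23 abundant genes were higher and 15 lower. With the 2-HG control in place of the own control, 523 genes and 84 abundant genes were lower. Other counts stayed within 1.5 times, among them those with a pseudocount of 0.1, median-of-ratios scaling and the mean of both controls. Of 54 named genes, 39 were past the rule against the own control, and 5 of these changed direction against the 2-HG control: Mia3 (-0.30), C1d (-0.18), Sec31a (-0.16), Adh1 (-0.048) and Fbxo18 (0.11). None of the 39 did so with another pseudocount, with median-of-ratios scaling or with TPM summed over genes that share exons. Of the 15 under the rule, 4 changed sign against the 2-HG control (Idh2, Tet3, Cdx2 and Gata6) and 3 with median-of-ratios scaling (Sox2, Cdx2 and Tet1). Median-of-ratios scaling moved the median of all genes from 0.05 to -0.00, and 12 of 48 list medians changed sign with it, 30 with the 2-HG control and 17 with the mean of both controls. The pair and the treatment cannot be told apart in the check against the 2-HG control.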
